A study of Mus musculus with 11 samples.

Results

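The genes examined here encode 10 transcription factors of the hair lineage and of keratinocyte differentiation: Msx1, Msx2, Dlx3, Foxn1, Gata3, Lef1, Trp63, Ovol1, Grhl3 and Prdm1. They were taken by name, as every probe set whose platform annotation gives exactly 1 gene symbol and whose symbol is one of these. This gave 19 probe sets of 45101 on the array, and 10 genes of the 18193 that have a probe set with 1 symbol. Of the 10 genes, 7 had several probe sets and 3, Gata3, Grhl3 and Prdm1, had 1. The cells were keratinocytes from the back skin of K5-myrAkt(L84) mice, sorted with an antibody to CD34 and magnetic beads, and the CD34+ fraction was measured on 5 arrays and the CD34- fraction on 6. Both fractions carry the transgene, in which the keratin 5 promoter drives an Akt that a myristoyl tag holds at the membrane, so the comparison is between fractions of transgenic skin and does not measure an effect of Akt. The labels name the CD34+ cells as hair follicle stem cells. For the CD34- cells the cell type label also says follicle stem cells, whereas the series' design text says only CD34- cells. The labels give no age or hair cycle stage and do not give the number of mice behind the arrays, so the p-values below rest on the spread between samples that may be technical replicates.

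These factors act at different steps of the path from stem cell to hair or to cornified epidermis. Trp63 (p63) maintains the basal layer of stratified epithelia. In the follicle, Lef1 carries the Wnt signal to DNA together with beta-catenin, and the homeobox factors Msx1, Msx2 and Dlx3, the forkhead factor Foxn1 and the zinc finger factor Gata3 are known from the matrix, hair shaft and inner root sheath. Foxn1 is the gene mutated in nude mice, and Gata3 is needed for the inner root sheath. Ovol1 restrains the growth of progenitors that leave the basal layer, Grhl3 switches on genes of the epidermal barrier, and Prdm1 (Blimp1) is known from the sebaceous gland, the granular layer and the dermal papilla. Gata3, Lef1 and Prdm1 are also expressed in lymphocytes.

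The sort left a clear mark on the arrays. For Cd34 the log2 signal averaged 11.83 ± 1.17 (SD, n = 5) in CD34+ cells and 4.20 ± 1.57 (SD, n = 6) in CD34- cells. The keratinocyte keratin genes Krt5 and Krt14 were bright in both fractions and not called different (log2 differences -0.07 and -0.31, limma adjusted p = 0.705 and 0.207). Shortened RNA or labelled copies raise the ratio of actin signal at the 3-prime end to that at the 5-prime end. Its log2 was between 2.91 and 5.25 in CD34+ cells and between 2.19 and 2.76 in CD34- cells, with no overlap. The same ratio for Gapdh overlapped, at 2.96 to 3.69 and 3.00 to 3.43. CD34+ arrays 1 and 2 had the highest actin ratios, so the called genes are also given without them.

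Foxn1, Gata3 and Trp63 were lower in CD34+ cells, and Prdm1 was higher. Foxn1 and Gata3 differed by about the same factor, 2.01-fold and 2.17-fold, and Prdm1 was 2.16-fold higher. Trp63 was 1.31-fold lower on its brightest probe set, a small difference that another of its probe sets contradicted. Msx1, Msx2, Ovol1 and Grhl3 were tested and not called. Dlx3 and Lef1 were too dim for the test.

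The brightest probe set by mean log2 signal over the 11 arrays stood for each gene, and the dimmest 40% of genes were left out. Each remaining gene was compared with limma, a linear model with moderated variances, and called at a Benjamini-Hochberg adjusted p under 0.05 over 10916 genes. Of the 10 genes 8 were tested, of which 1 was called higher and 3 were called lower. Over all tested genes, 12.4% were called higher, 12.3% lower and 24.7% either way, so a call by itself is common in this comparison. With the arrays shifted to equal medians, which moved the median difference of all tested genes to -0.48, 396 genes were called higher and 5212 lower, against 1350 and 1347 as deposited. The median log2 difference of the 8 genes was -0.01, close to that of all tested genes. The arrays of the fractions did not overlap for 2 of the 8, Gata3 and Trp63, against 15% of all tested genes.

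**Figure D1:**
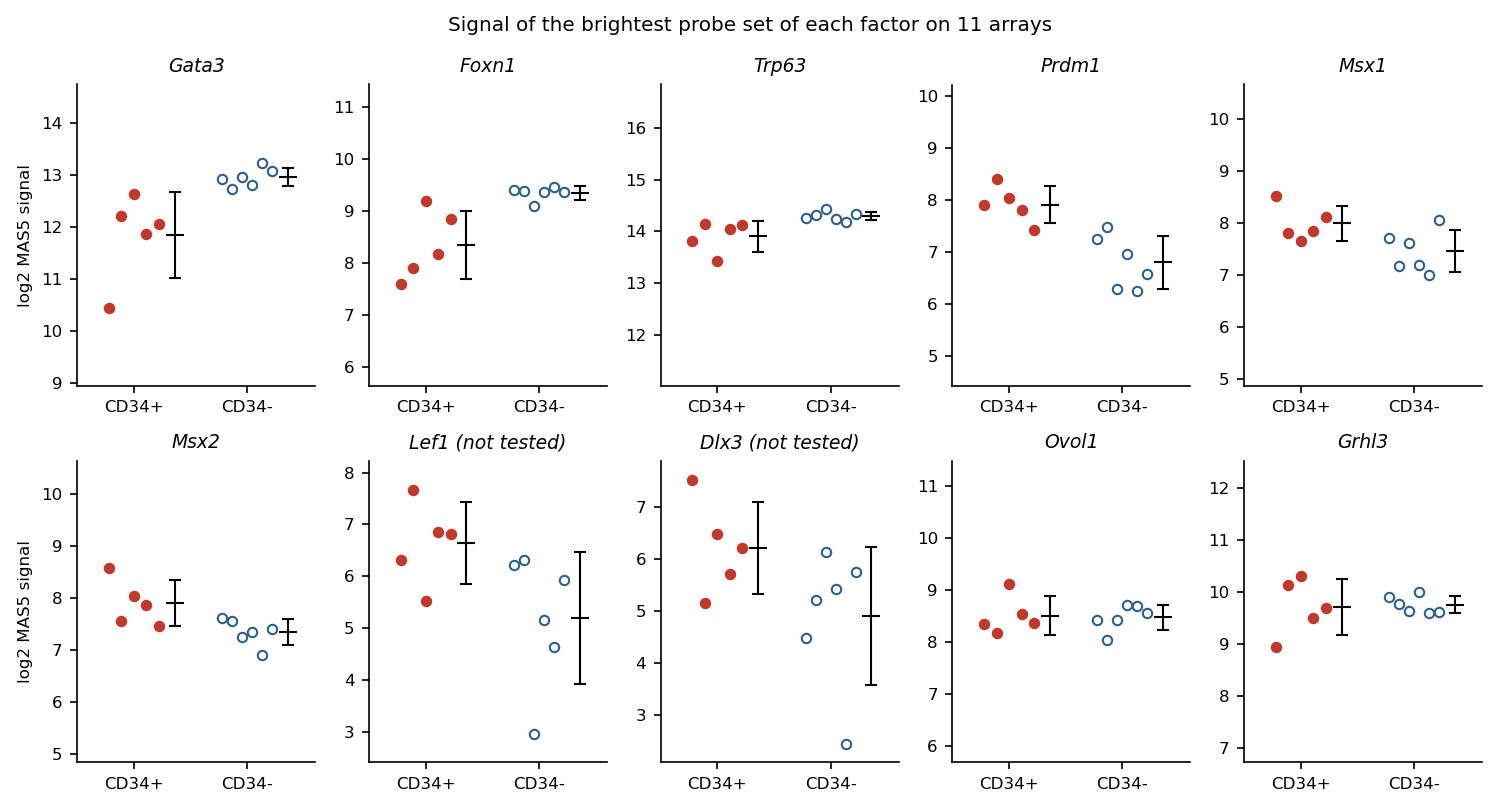
Log2 MAS5 signal (vertical axis) of the brightest probe set of each factor on 5 CD34+ arrays (filled) and 6 CD34- arrays (open), in replicate order from left to right, with the mean and SD beside them. Each panel spans the same number of log2 units. For Gata3 and Trp63 all CD34+ points lie below all CD34- points, and Lef1 and Dlx3, which were not tested, scatter widely on CD34- arrays.

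The promoters below belong to the 3 called genes with a promoter entry in RefSeq (GRCm38.p6) and to Lef1, whose start shown here held matches to 2 of the motifs searched. Each runs 5-prime to 3-prime on the strand of the gene, from 250 bases before to 50 bases after the start. Capitals mark a match, on either strand, to a short motif known for one of these factors.
Gata3, chr2:9878551-9878850, minus strand: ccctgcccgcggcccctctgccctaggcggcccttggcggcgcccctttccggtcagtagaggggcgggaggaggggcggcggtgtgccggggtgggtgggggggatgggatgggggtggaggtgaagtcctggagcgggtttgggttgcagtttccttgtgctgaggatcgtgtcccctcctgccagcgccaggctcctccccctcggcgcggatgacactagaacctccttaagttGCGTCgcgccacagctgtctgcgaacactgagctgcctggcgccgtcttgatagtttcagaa
Foxn1, chr11:78386559-78386858, minus strand: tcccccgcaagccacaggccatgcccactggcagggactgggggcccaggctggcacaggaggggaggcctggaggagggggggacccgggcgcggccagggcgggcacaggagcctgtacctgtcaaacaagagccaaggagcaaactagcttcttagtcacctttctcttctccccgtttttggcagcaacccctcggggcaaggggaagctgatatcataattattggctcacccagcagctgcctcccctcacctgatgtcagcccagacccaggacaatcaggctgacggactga
Prdm1, chr10:44458699-44458998, minus strand: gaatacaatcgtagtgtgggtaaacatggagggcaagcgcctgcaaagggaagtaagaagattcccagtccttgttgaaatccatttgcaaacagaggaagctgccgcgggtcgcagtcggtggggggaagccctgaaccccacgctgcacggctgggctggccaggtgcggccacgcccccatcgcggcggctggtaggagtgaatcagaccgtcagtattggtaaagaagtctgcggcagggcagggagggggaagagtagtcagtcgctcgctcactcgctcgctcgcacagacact
Lef1, chr3:131156044-131156343, plus strand: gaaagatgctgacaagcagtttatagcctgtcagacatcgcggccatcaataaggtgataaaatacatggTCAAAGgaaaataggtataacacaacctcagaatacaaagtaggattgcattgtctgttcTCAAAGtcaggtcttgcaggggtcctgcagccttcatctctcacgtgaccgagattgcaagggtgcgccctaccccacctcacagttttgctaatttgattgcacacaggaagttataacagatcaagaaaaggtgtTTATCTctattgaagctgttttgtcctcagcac

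Of the 10 genes 7 had such a promoter entry, with 10 starts in all, and Dlx3, Trp63 and Ovol1 had none. The 7 motifs searched on both strands were CTTTGA for Lef1 and its Tcf relatives, TAATTG for Msx and Dlx homeobox factors, AGATAA for GATA factors, AACNGGTT for grainyhead factors such as Grhl3, GAAAGTG for Prdm1, GACGC for Foxn1 and CCGTTA for Ovol factors. No match overlapped another motif's match in the member promoters. The Lef1 start shown, the most 3-prime of 4, held CTTTGA at 2 places, 180 and 120 bases before the start, and AGATAA from base 18 after it. CTTTGA was found in 16.0% of all 32851 promoters of this length and in 2 of the 10 member promoters, the other being that of Grhl3, 201 bases before its start. AGATAA was found in 11.2% of all promoters and in 1 of the 10 member promoters. The other Lef1 starts held neither of these motifs. GACGC, the most frequent of the motifs at 27.2% of all promoters, was found in 4 member promoters: that of Gata3, that of Msx2, with 2 matches, and 2 overlapping Lef1 starts. The Foxn1 and Prdm1 windows held none of the 7 motifs, nor did that of Msx1. The homeobox motif was found in 8.0% of all promoters, the grainyhead motif in 2.1%, the Prdm1 motif in 4.8% and the Ovol motif in 2.8%, and none of these was in a member promoter. These matches describe letters in a window and are not measured binding sites.

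Gata3 had log2 signals of 10.45, 12.21, 12.64, 11.87 and 12.06 on CD34+ arrays 1 to 5. Among CD34- arrays the lowest was 12.74, the median 12.95 and the highest 13.24. Every CD34+ array lay below every CD34- array, and CD34+ array 1 stood furthest away. Gata3 was a bright gene in both fractions, above at least 88.7% of all probe sets on each array. The means were 11.85 ± 0.83 (SD, n = 5) and 12.96 ± 0.18 (SD, n = 6), a log2 difference of -1.12 (SE 0.28, limma adjusted p = 0.013). Without CD34+ array 1 the difference was -0.77, as it was without CD34+ arrays 1 and 2 (adjusted p = 0.00641), and the call was kept on leaving out each of the 11 arrays in turn, with a highest adjusted p of 0.0289.

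Foxn1 had log2 signals of 7.60, 7.91, 9.20, 8.17 and 8.86 on CD34+ arrays 1 to 5 and of 9.10 at the lowest, 9.38 at the median and 9.47 at the highest on CD34- arrays. The fractions met only at CD34+ array 3, which lay above the lowest CD34- array. The means were 8.35 ± 0.66 (SD, n = 5) and 9.35 ± 0.13 (SD, n = 6), and the log2 difference, CD34+ minus CD34-, came to -1.005 (SE 0.24, limma adjusted p = 0.0106), kept on leaving out each array in turn. Without CD34+ arrays 1 and 2 it was -0.61 (adjusted p = 0.0477). The dimmer Foxn1 probe set, 1450508_at, ran from 6.27 to 7.21 on CD34+ arrays and from 7.18 to 7.44 on CD34- arrays. It differed by -0.52 (SE 0.22), which was not called when every probe set was fitted by itself (adjusted p = 0.102), although it was called after quantile normalization (-0.97, adjusted p = 0.0221). The probe sets of Foxn1 differed from each other in their change by -0.48 (SE 0.16, exact two-sided permutation p = 0.0216, adjusted p = 0.0649 over 12 pairs of probe sets).

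Trp63, the basal layer factor, had 4 probe sets that did not move together. The brightest, 1418158_at, had log2 signals of 13.81, 14.14, 13.43, 14.04 and 14.12 on CD34+ arrays 1 to 5, against 14.19 at the lowest, 14.29 at the median and 14.43 at the highest on CD34- arrays. It was above at least 98.7% of probe sets on every array. The groups did not overlap, but the gap between the nearest arrays was narrow. The fractions differed by -0.38 (SE 0.13, limma adjusted p = 0.0401), and the call was lost in 14 of 24 alternatives, among them 8 of the 11 fits that leave out an array (adjusted p up to 0.0812). Without CD34+ array 3, the lowest, the difference was -0.26 (adjusted p = 0.0671), and without CD34+ arrays 1 and 2 it was -0.43 (adjusted p = 0.0457).

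The next probe set of Trp63, 1459581_at, went the other way. Its log2 signals were 11.58, 11.64, 11.83, 11.74 and 11.52 on CD34+ arrays 1 to 5 and 10.76 at the lowest, 11.19 at the median and 11.36 at the highest on CD34- arrays, again with no overlap. It was higher in CD34+ cells by 0.52 (SE 0.13, limma adjusted p = 0.013 with every probe set fitted by itself). After shifting the arrays to equal medians its difference was 0.04 (adjusted p = 0.862) and that of the brightest probe set -0.86. A shift of a whole array leaves the gap between probe sets on that array as it is. Within arrays, the change of the brightest minus that of 1459581_at was -0.90 (SE 0.21, exact two-sided permutation p = 0.002165, the smallest that 462 splits of the arrays allow, adjusted p = 0.026 over 12 pairs). The dimmer probe sets 1452027_a_at and 1451876_a_at differed by -0.27 (SE 0.27, limma adjusted p = 0.488) and, untested, by -0.83. Each also changed unlike 1459581_at (adjusted p = 0.0346 for both by the exact permutation test). For 1451876_a_at this rests on low values, since it was dim on 4 of 5 CD34+ and 2 of 6 CD34- arrays. With dim values raised to the cutoff that defines dim, its difference was 0.24, of the same sign as that of 1459581_at. Whether this pair still differs on raised values was not tested. The brightest probe set did not differ from 1452027_a_at and 1451876_a_at beyond their spread (adjusted p = 0.938 and 0.549, exact permutation test). Which transcripts of Trp63 each probe set reads was not analysed here.

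**Figure D2:**
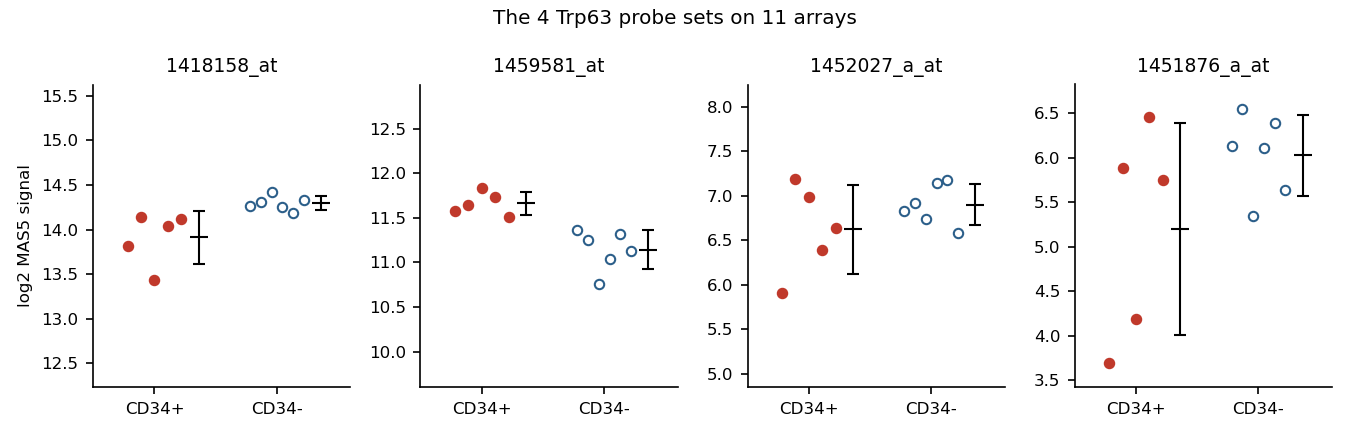
Log2 MAS5 signal (vertical axis) of the 4 Trp63 probe sets on 5 CD34+ arrays (filled) and 6 CD34- arrays (open), with mean and SD. All panels span the same number of log2 units. The first probe set is lower on all CD34+ arrays and the second is higher on all of them, while the groups overlap on the other two.

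Prdm1 was the only one of the 8 tested genes called higher in CD34+ cells. Its log2 signals were 7.90, 8.40, 8.03, 7.81 and 7.42 on CD34+ arrays 1 to 5, with CD34+ array 5 the lowest. On CD34- arrays they were 6.25 at the lowest, 6.77 at the median and 7.47 at the highest. Only CD34- array 2, the highest, lay above a CD34+ array. The means were 7.91 ± 0.35 (SD, n = 5) and 6.80 ± 0.51 (SD, n = 6), a log2 difference of 1.11 (SE 0.27, limma adjusted p = 0.0112). The call was kept on leaving out each array in turn, with differences of 0.99 to 1.24. With the arrays at equal medians the difference was 0.63 (adjusted p = 0.0456), and without CD34+ arrays 1 and 2 it was 0.95 (adjusted p = 0.0446). Prdm1 was not bright enough to be tested when the dimmest 60% of genes were left out.

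The homeobox repressors Msx1 and Msx2 had higher means in CD34+ cells, by amounts that did not pass the test. On the brightest probe set, Msx1 had log2 signals of 8.52, 7.80, 7.65, 7.85 and 8.11 on CD34+ arrays 1 to 5 and 7.004 at the lowest, 7.40 at the median and 8.06 at the highest on CD34- arrays. For Msx2 they were 8.57, 7.56, 8.05, 7.87 and 7.46, against 6.91, 7.38 and 7.62. CD34+ array 1 was the highest for both. The log2 difference was 0.53 for Msx1 (SE 0.24, limma adjusted p = 0.113) and 0.55 for Msx2 (SE 0.23, limma adjusted p = 0.0903), neither called. The 95% intervals, not adjusted for the number of genes, were 0.02 to 1.03 and 0.06 to 1.05. The other probe set of Msx2 differed by 0.55 (SE 0.32, limma adjusted p = 0.239). The dim other probe set of Msx1, untested, differed by 0.53, but by 0.16 without CD34- array 1 and by 0.33 without CD34+ array 4. After shifting the arrays to equal medians, the differences of the brightest probe sets were 0.05 for Msx1 and 0.07 for Msx2.

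Dlx3 and Lef1 had higher means in CD34+ cells, with wide scatter among dim values. Lef1 had log2 signals of 6.32, 7.67, 5.52, 6.86 and 6.81 on CD34+ arrays 1 to 5 and of 2.98 at the lowest, 5.54 at the median and 6.32 at the highest on CD34- arrays. The difference of means was 1.43, and 2 of 5 CD34+ and 3 of 6 CD34- arrays were under the 40th percentile of their array. Fitted without the filter on dim genes, in which 14.7% of 18193 genes were called, Lef1 had a limma adjusted p of 0.11. With values under that percentile raised to it, the difference was 0.85. Dlx3, a homeobox factor of the hair matrix and of the upper epidermis, had 7.53, 5.14, 6.47, 5.71 and 6.20 on CD34+ arrays. On CD34- arrays it had 2.44 at the lowest, 5.32 at the median and 6.12 at the highest. Its difference of means was 1.31 (limma adjusted p = 0.167 without the filter), or 0.79 with dim values raised. Without CD34- array 5, the lowest, it was 0.82. With the arrays at equal medians the differences of means were 0.95 for Lef1 and 0.83 for Dlx3. After quantile normalization they were 0.92 and 0.72. Over all genes, dim ones included, the median difference as deposited was 0.19. The other probe sets, dimmer still, differed by 0.73 for Lef1 and 1.10 for Dlx3, on 9 or more dim arrays of 11 in both cases. For Lef1 the smallest difference on leaving out an array was 0.17, without CD34- array 3, and for Dlx3 it was 0.71, without CD34+ array 1.

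Ovol1 and Grhl3, both known from cells that leave the basal layer, had almost equal means in the fractions on the values as deposited. Ovol1 had log2 signals of 8.33, 8.16, 9.12, 8.53 and 8.37 on CD34+ arrays 1 to 5, around the CD34- values of 8.04 at the lowest, 8.49 at the median and 8.70 at the highest. The fractions differed by 0.03 (SE 0.19, 95% interval -0.38 to 0.44, limma adjusted p = 0.915). Its other probe set differed by -0.87 (SE 0.50, limma adjusted p = 0.22), with 2 CD34+ arrays, 1 and 4, far below the rest at 4.48 and 5.11. Grhl3 had 8.94, 10.14, 10.32, 9.51 and 9.69 on CD34+ arrays and 9.61, 9.71 and 10.02 as the lowest, median and highest on CD34- arrays. Here CD34+ arrays lay on both sides of the CD34- range. The fractions differed by -0.05 (SE 0.21, 95% interval -0.50 to 0.40, limma adjusted p = 0.89). On the values as deposited, the intervals exclude a 2-fold difference in either direction for the brightest probe set of each gene, without adjustment for the number of genes. With the arrays at equal medians the differences were -0.45 for Ovol1 (limma adjusted p = 0.12) and -0.53 for Grhl3 (limma adjusted p = 0.0566), neither called.

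**Figure D3:**
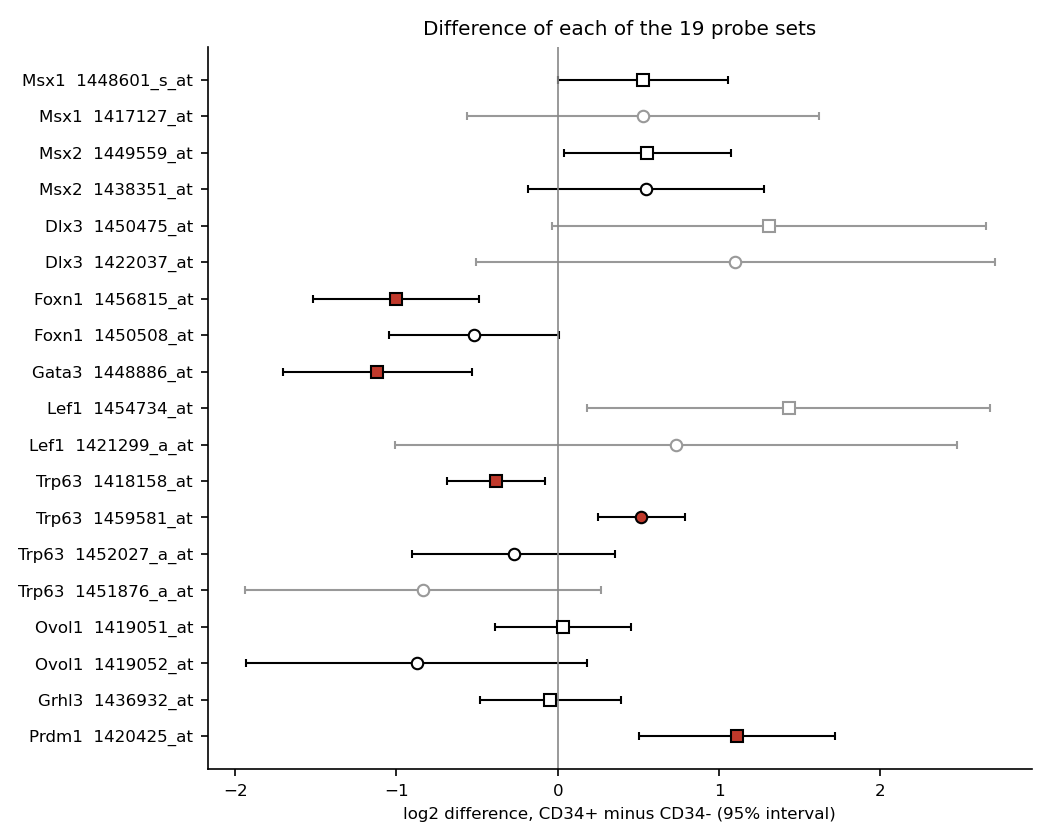
Log2 difference, CD34+ minus CD34- (horizontal axis), of each of the 19 probe sets with its 95% interval from the limma fit of every probe set without the filter on dim values. Squares are the brightest probe set of a gene, filled symbols were called in the fit with the filter, and grey symbols were too dim to be tested. The 5 called probe sets are those of Foxn1, Gata3 and Prdm1 and the first 2 of Trp63, which lie on opposite sides of 0.

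When every probe set was fitted by itself, 13 of the 19 passed the filter, and over all probe sets tested 20.7% were called either way. Of these 2 were called higher, those of Prdm1 and 1459581_at of Trp63, against 11% of the 20967 probe sets tested. Another 3 were called lower, the brightest of Foxn1, Gata3 and Trp63, against 9.77%. The other 8 were not called, and 3 of the 13 had no overlap between the fractions, against 13.4%.

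The CD34+ arrays varied more than the CD34- arrays. Over the 19 probe sets the median SD was 0.66 in CD34+ cells and 0.28 in CD34- cells, and 12 of 19 had the larger SD in CD34+ cells. Over all tested genes the median SDs were 0.36 and 0.22, with a larger SD in CD34+ cells for 78.8%. These sets are unlike, since the 19 include 6 probe sets too dim for the test, and each tested gene stood as its brightest probe set. Of the brightest probe sets of the 10 genes, 6 had the larger SD in CD34+ cells. CD34+ array 1 was the lowest CD34+ array for 8 of the 19 probe sets and the highest for 4, and CD34+ array 3 the lowest for 5 and the highest for 6. With the actin ratio of each array in the model, 0 of the 8 genes were called by limma and 0 had an unadjusted p under 0.05, while 126 of all tested genes were called. The differences were then -0.48 for Gata3 (SE 0.39), -0.48 for Foxn1 (SE 0.35), -0.26 for Trp63 (SE 0.21) and 0.79 for Prdm1 (SE 0.45), all with the same sign as before. Without CD34+ array 1 and with the same term, chosen after the data were seen, Gata3 was called (-1.07, SE 0.22, limma adjusted p = 0.0102) and the other 3 were not (adjusted p = 0.305 to 0.554). Since the actin ratios of the fractions did not overlap, RNA length and CD34 status cannot be told apart on these arrays.

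**Figure D4:**
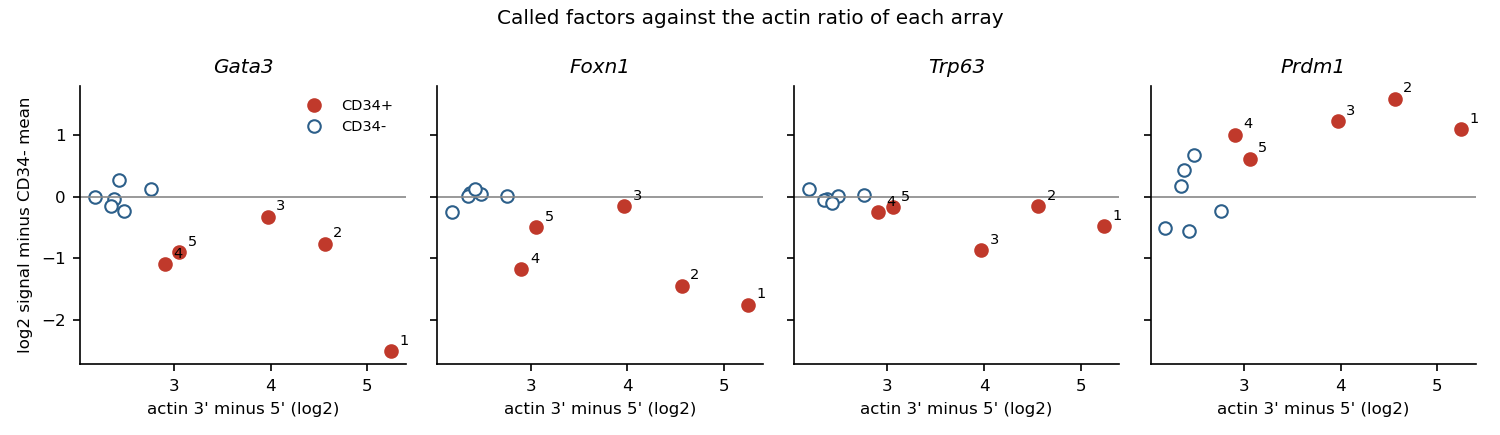
Log2 signal minus the CD34- mean (vertical axis) against the log2 actin 3-prime minus 5-prime difference (horizontal axis) for the brightest probe sets of the 4 called genes, with CD34+ arrays filled and numbered. CD34+ arrays 4 and 5, whose actin ratios of 2.91 and 3.06 are nearest to those of CD34- arrays, lie below the CD34- mean for Gata3, Foxn1 and Trp63 and above it for Prdm1. Their actin ratios are still above those of every CD34- array, and for Prdm1 CD34+ array 5 lies within the CD34- range.

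Of 20 tested other transcription factors known from hair and keratinocytes, 2 rose, 2 fell and 16 were not called, beside 12.4% higher and 12.3% lower over all tested genes. Of the 20 differences 13 were negative, and their median was -0.30 against a median close to 0 over all tested genes. The vitamin D receptor gene Vdr (0.83, SE 0.18, limma adjusted p = 0.00564) and Skil (0.35, SE 0.12) rose, the first on 1 of its 2 tested probe sets, and the C/EBP factor genes Cebpa (-0.84, SE 0.20) and Cebpb (-0.50, SE 0.15) fell. Skil was called in 2 and Cebpb in 6 of the 11 fits that leave out an array, with adjusted p up to 0.106 and 0.0626. Hoxc13, Barx2 and Dlx2, the rest of the 23 with a probe set, were too dim for the test. Without the filter, where 14.7% of 18193 genes were called, limma gave 2.03 for Hoxc13 (adjusted p = 0.0314). It gave -1.89 for Barx2 (adjusted p = 0.0109) and 0.83 for Dlx2 (adjusted p = 0.421). Hoxc13 was dim on 3 of 6 CD34- arrays, and Barx2 on 5 of 5 CD34+ arrays. The lists in this and the next paragraphs share some genes, so that their counts are not separate. The same 12.4% and 12.3% over all tested genes stand beside the counts of each list with all 11 arrays.

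Partners of Lef1 and targets of Wnt signalling moved both ways. Of 15 tested, 4 rose and 3 fell, with a median of 0.16. Lgr5, a Wnt target and follicle stem cell receptor gene (2.60, SE 0.19), and the Wnt inhibitor gene Nkd1 (1.59, SE 0.26) rose most clearly. Tle3, which encodes a corepressor that binds Lef1 and its relatives (-1.07, SE 0.18), and Axin2, a widely used Wnt target (-0.76, SE 0.18), fell. Other probe sets of Nkd1, Tle3 and Axin2 that passed the filter were not called, which holds also for Casp14, Jag2 and Mitf below.

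Genes of the hair shaft and inner root sheath, mostly keratin genes and products of cells in which Msx2, Foxn1 and Gata3 act, were mostly dim. Only 10 of 25 with a probe set were tested, of which 3 rose and 1 fell, with a median of 0.94. Krt75 of the companion layer (1.54, SE 0.42, limma adjusted p = 0.0179) and Krt72 of the inner root sheath (1.497, SE 0.47, limma adjusted p = 0.0339) rose, and the cuticle keratin gene Krt32 fell by 0.69 (SE 0.19). Without CD34+ arrays 1 and 2, limma called 0 of 6 tested genes higher (3 at an unadjusted p under 0.05), and Krt32 was at -0.91. That fit called 889 of all 10916 tested genes higher and 907 lower. Only 1 gene was called higher without CD34+ array 2 or without CD34- array 3, 5 or 6. Krt72 was called in 4 of the 11 fits without an array (adjusted p up to 0.0766).

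Genes of the suprabasal and cornified layers, among them targets of Grhl3, had 8 members higher and 3 lower of 24 tested, with a median of 0.34. The protease inhibitor gene Spink5 (0.98, SE 0.10) and the cornified envelope gene Lce1c (1.54, SE 0.27) rose, and Casp14, a caspase gene of cornification (-1.22, SE 0.31), and the desmoglein gene Dsg1b (-0.88, SE 0.29) fell, the last in only 4 of the 11 fits without an array. Without CD34+ arrays 1 and 2 limma called 4 higher and 0 lower, with 10 and 2 at an unadjusted p under 0.05. Over all 10916 genes tested in that fit, 889 were called higher and 907 lower. Leaving out 1 array gave 3 to 10 higher and 1 to 2 lower, with 5 or fewer higher without CD34+ array 2 or 3 or without any of CD34- arrays 2 to 6. Basal layer genes linked to p63 had 1 member higher and 4 lower of 18, with a median of -0.13. Runx1 rose (1.13, SE 0.19), and the Notch ligand gene Jag2 (-1.10, SE 0.19) and the integrin gene Itga6 (-0.53, SE 0.10) fell. In the sebaceous gland list, which bears on a tissue where Prdm1 is known, 1 of 12 genes was called, the lipid droplet gene Cidea (-0.84, SE 0.28). It was called in 4 of the 11 fits without an array (adjusted p up to 0.089).

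**Figure D5:**
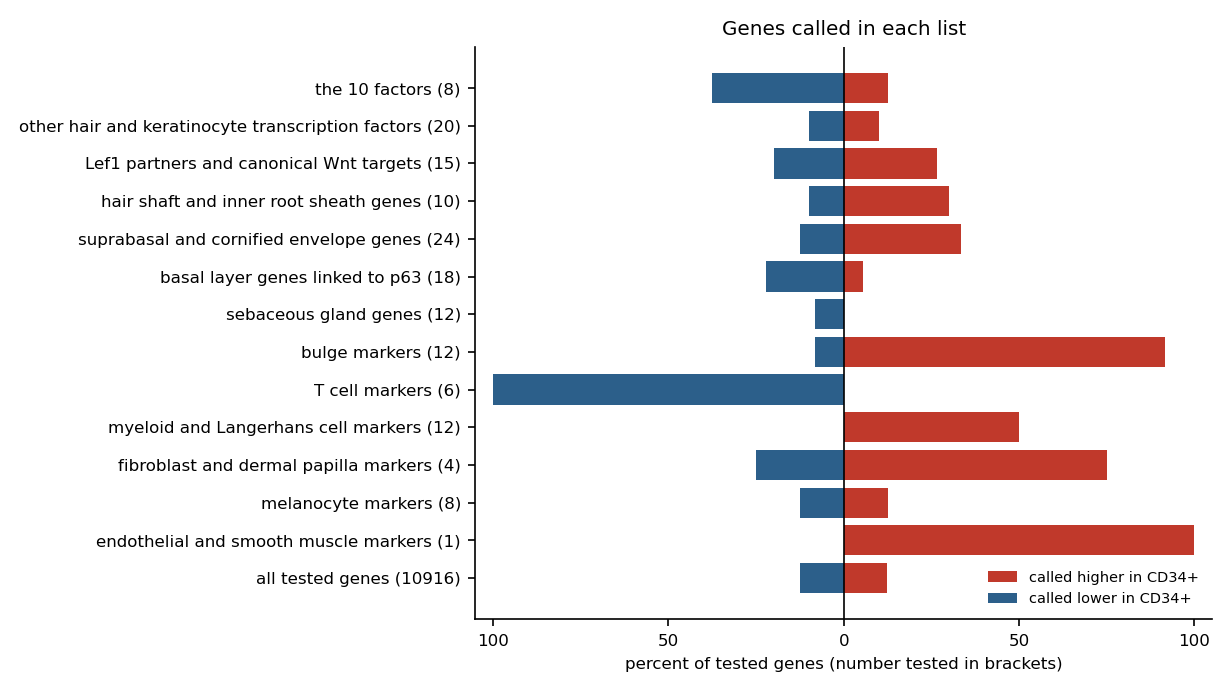
Share of tested genes, in percent (horizontal axis), called higher (right) or lower (left) in CD34+ cells for the 10 factors, for each list of other genes and for all tested genes, with the number tested in brackets. T cell markers lie to the left only, and bulge markers, shown with Cd34 itself, mostly to the right; several lists hold few tested genes.

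Markers of other cells differed between the fractions too. All 6 tested T cell genes fell, with a median of -2.06, among them Cd7 (-3.85, SE 0.40) and Gzmc (-2.31, SE 0.30). Cd7 was dim on most CD34+ arrays, and the median of the other 5 was -1.81. Of the genes too dim for the test, Il2rb had a higher mean in CD34+ cells, by 1.23, and was dim on 3 of 6 CD34- arrays. Cd3d, Cd247, Cd2 and Cd69, also untested, had lower means in CD34+ cells. The summed linear signal of the 11 T cell genes with a probe set was 738 to 3138 on CD34+ arrays and 4579 to 7662 on CD34- arrays, and the T cell receptor complex genes Cd3e and Cd3g fell by 1.48 and 2.69. Gata3 is a T cell factor as well, and how much of its difference comes with these markers was not tested. In such a bulk sample, fewer cells of a type and less RNA per cell cannot be told apart. Of 12 tested myeloid and Langerhans cell genes 6 rose and 6 were not called, with a median of 0.70, among them C1qb (1.95, SE 0.24) and H2-Aa (0.95, SE 0.25), while Cd207 and Cd74 were not called (0.24 and 0.62). Leaving out 1 array gave 3 to 8 higher, the 3 without CD34+ array 5. The summed signal was 8554 to 24019 against 10986 to 13705. This sum includes Epcam, the brightest gene of the list in CD34- cells, with mean log2 signals of 11.75 in CD34+ and 12.38 in CD34- cells. Epcam differed by -0.64 (limma adjusted p = 0.127). How much of the sum comes from myeloid or Langerhans cells was not tested. Of 4 tested fibroblast and dermal papilla genes 3 rose, among them Col1a2 (3.49, SE 0.26) and Dcn (1.53, SE 0.24), and Rspo3 fell by 1.16 (SE 0.17). The summed signal of 12 such genes was 3512 to 9184 against 1123 to 1592. Pdgfra rose by 1.59 (SE 0.44), and Col1a1 was under the 40th percentile on 4 of 5 CD34+ and 5 of 6 CD34- arrays. Prdm1 and Lef1 are also known from cells of the dermis, and the part of these markers in the higher Prdm1 signal was not tested. Of 8 melanocyte genes Mitf rose (1.42, SE 0.33) and Kit fell (-1.33, SE 0.24), and Dct and Tyr were not called (-0.50 and -0.42). Their summed signal was 8168 to 14529 against 5609 to 27120. Of the endothelial and smooth muscle genes only Acta2 was tested, and it rose by 2.05 (SE 0.54), with a summed list signal of 657 to 4669 against 464 to 723. Pecam1 was dim on 4 of 5 CD34+ arrays and on all 6 CD34- arrays. Of 12 bulge markers, Cd34 itself is the gene of the sort, and Fgf18 was dim on 5 of 6 CD34- arrays and passed the filter through the CD34+ arrays. Of the other 10, 9 rose and Itga6 fell, with a median of 1.18, and besides Lgr5 the T-box gene Tbx1 rose (3.51, SE 0.30).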

How the data were processed

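Total RNA of 5 CD34+ and 6 CD34- samples was measured on single-channel Affymetrix arrays. The authors deposited 1 log2 value per probe set and array. Per the submitters' processing notes MAS5 produced these values, and its version is not given in the sources used here. Converted to linear signal, the mean trimmed by 2% at each end was 500.002 to 500.004 on each array, and the values were used without further scaling. No detection calls were used, so low values were treated as dim, not absent. Precision is limited by the number of arrays, with a median SE of 0.19 over tested genes.

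Gene names came from the platform annotation. Of the 34945 probe sets that have 1 symbol, 34741 were matched to RefSeq and took its symbol, whether or not the name changed. The log2 values were compared with limma 3.58.1 in R 4.3.3, with an intensity trend and Benjamini-Hochberg adjustment. Probe sets were also fitted one by one. Dim means under the 40th percentile of an array. Differences are CD34+ minus CD34-. Pairs of probe sets were compared by an exact permutation test over arrays. This test, and the list values without Cd34 or genes dim on most arrays of a fraction, were chosen after the data were seen. The genes named outside the 10 factors are Cd34, Krt5 and Krt14, the 2 called genes with the smallest p in each direction of each list and 2 defining markers of each other cell type. Epcam, Fgf18 and some list genes too dim for the test are named outside this rule. The 10 genes and the lists were chosen with earlier results of these data known. Alternatives were other scalings, filters, offsets and probe set summaries, array weights, no trend, the actin ratio, a block for replicate number, and fits without single arrays.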

Additional observations from a re-analysis of the deposited data

Results flagged for a closer look

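Among 38 groups of arrays examined, 19 probe sets in each fraction, 2 had an array far from the others, and chance alone flags about 5% of such groups. Msx1 probe set 1417127_at was 3.52 on CD34- array 1 against 5.47 to 6.09 on the other CD34- arrays, all of them dim values. Foxn1 probe set 1456815_at was 9.10 on CD34- array 3 against 9.37 to 9.47 on the other CD34- arrays. The gap to the nearest of these was 0.73 of the narrow range over all CD34- arrays, array 3 included.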

How the results depend on the processing

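Over 24 alternatives, Gata3 was called lower in 23, Foxn1 in 22 and Trp63 in 10, and Prdm1 was called higher in 21, with no change of direction. Counts of the 10 genes changed to 0 higher and 0 lower with the actin ratio as a covariate, 0 higher with the dimmest 60% left out, and 0 higher and 1 lower without CD34+ array 1 and with the actin ratio. On leaving out 1 array the counts were 1 higher and 2 to 3 lower. Over all genes, 1350 higher and 1347 lower calls became 396 and 5212 with equal medians, which moved the median gene by -0.48, 96 and 30 with the actin ratio, and 369 and 234 without CD34+ array 1 and with that ratio. There were 743 higher calls with the dimmest 60% left out, 783 lower calls with the mean of probe sets and 889 higher calls without CD34+ arrays 1 and 2. Leaving out 1 array gave 983 to 1363 higher and 896 to 1415 lower calls, the 896 without CD34- array 4. The member probe sets called, 2 higher and 3 lower, were 1 and 6 with equal medians, 1 higher with the dimmest 60% left out, 0 and 0 with the actin ratio, 1 and 1 without CD34+ arrays 1 and 2, and 0 higher without CD34+ array 1 and with that ratio. Leaving out 1 array gave 2 higher and 2 to 3 lower.

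With the replicate number as a block, 1 member probe set was called higher, that of Prdm1, since Trp63 probe set 1459581_at lost its call (0.52, limma adjusted p = 0.0572). Trp63 on its brightest probe set differed by -0.38 (adjusted p = 0.0905), and Gata3, Foxn1 and Prdm1 kept their calls. The deviations of same-numbered arrays had correlations of 0.02 to 0.19. Those of differently numbered arrays are not given for comparison, so these values do not settle whether the numbers pair the samples. In the main fit the numbers were not taken to pair them. Values near 0 changed sign. Ovol1 was -0.13 after quantile normalization, -0.45 with equal medians, -0.42 with the mean of probe sets, and -0.12 to 0.12 on leaving out 1 array. Grhl3 was 0.15 with the actin ratio, 0.074 without CD34+ arrays 1 and 2, and -0.20 to 0.15 on leaving out 1 array. With equal medians Grhl3 kept its sign, at -0.53. Dim probe sets turned too: 1451876_a_at of Trp63 was 0.24 with dim values raised to the 40th percentile, 0.38 with the actin ratio and 0.055 without CD34+ array 1 and with that ratio. The dimmer Lef1 probe set was -0.19 and -0.0093 in those last 2 fits, and the dimmer Dlx3 probe set was -0.26 with the actin ratio. The cause of these changes was not tested.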
